A study of Gallus gallus with 16 samples.

Results

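Testes of chicken (Gallus gallus) embryos that had received sesame oil were set against testes of untreated embryos, over all genes of the deposited table. Of the 16 libraries of the series 4 belong to these groups, a right and a left gonad library of each, and the table holds them as 2 of its 8 value columns, 1 for untreated males and 1 for males given oil. The table listed 14074 genes, and 4806 of them reached a mean of 20 RPM over both columns, where RPM is the tag number of a gene scaled to a common total and were compared. All groups were at embryonic day 19, of a strain that the labels do not give, and each was a pool of RNA from 10 individuals. The labels name the substance of the controls as none and that of the treated group as sesame oil, and they give neither the dose nor the day of treatment. No single animal was measured, right and left libraries had been joined in a way that was not stated, and each group was thus 1 column with no replicate. The series also held males and females given the organotin tributyltin (10 pg tin per g body weight) or the synthetic androgen methyltestosterone (30 pg per g body weight), and females given oil or nothing.

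The embryonic testis is built from Sertoli cells, which surround the germ cells and secrete anti-Müllerian hormone, from steroid-making Leydig cells between the cords, and from peritubular and vascular cells. Sesame oil is a common carrier for fat-soluble hormones and toxicants, so a group given the carrier alone serves as the reference for such substances. SuperSAGE sequences a single short tag beside the last site of an anchoring enzyme in each polyadenylated transcript, so the number of tags of a gene follows its transcript number whatever the transcript's length. In pooled tissue, fewer cells of a type and less RNA per cell cannot be told apart.

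The untreated column held 1953798 tags and the oil column 492619, a ratio of 3.97, so that 1 tag stood for 0.512 RPM in the untreated column and 2.03 RPM in the oil column. A gene listed without a tag was read against a floor of 3 tags, which is 1.54 RPM in untreated males and 6.09 RPM in males given oil. A tag was found for 10676 genes in the untreated column and for 8505 in the oil column, and thinning the untreated column to the oil depth left 8969. The tributyltin males had 508095 tags, near the oil males, and the methyltestosterone males had 6669049. The shallow oil and tributyltin columns stood apart from the untreated and methyltestosterone columns in other ways as well, given beside the results, so that the substance and the set of libraries cannot be told apart.

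With 1 column a group there was no test between the conditions. A gene was called where the 95% counting interval of its ratio of oil to untreated lay wholly beyond 2-fold, which covers the counting error of these libraries and no variation between animals. By this rule 228 of 4806 genes were higher after oil (4.74%) and 217 were lower (4.52%). The interval lay beyond 4-fold for 81 of the higher and 47 of the lower genes, and beyond 10-fold for 25 and 9. The median log2 ratio over all compared genes was -0.17, with an interquartile range of -0.73 to 0.38, so list medians are set beside -0.17. Ratios, intervals and calls of single genes were not shifted by this median and are relative to equal RPM. When the columns were scaled by the median of their ratios in place of their totals, 272 genes were higher and 150 lower, which moved the share of higher genes among those called from 51.2% to 64.5%. The log2 values of the columns correlated at r = 0.76 over the 3020 genes whose mean reached 50 RPM, a description over genes that are not independent. For these columns the authors' deposited table gave a p-value under 0.05 to 3705 of 10963 genes (33.8%). Among the compared genes these were 2596 of 4806 (54%). All 445 called genes were among them, but the calls and the p-values rest on the same columns, so this is no separate check.

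**Figure D1:**
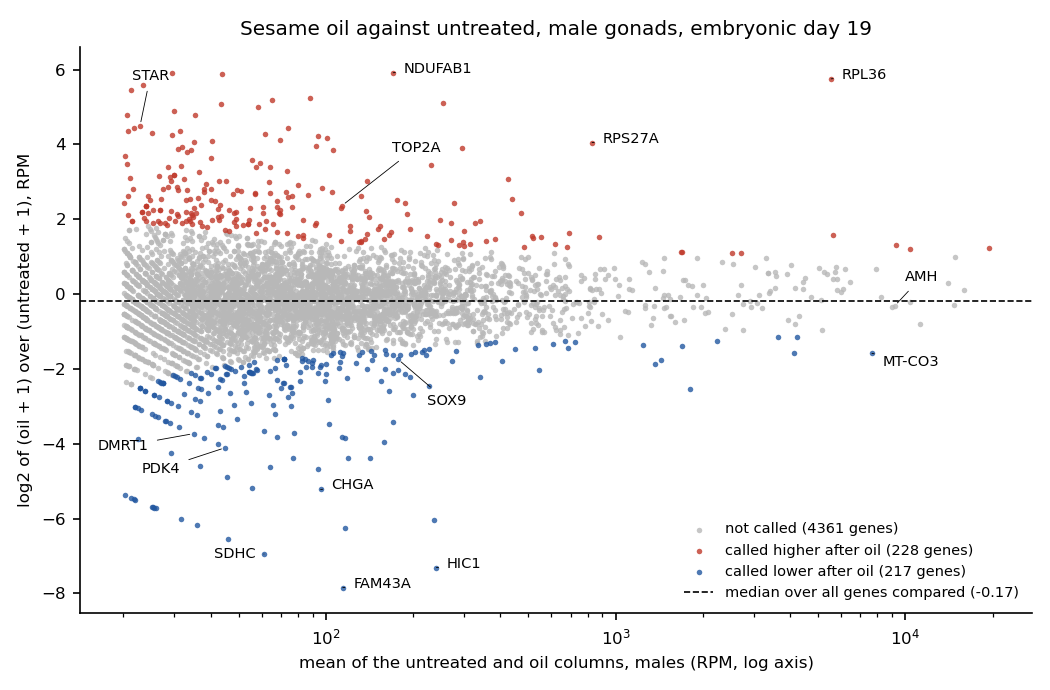
Each point is 1 of the 4806 compared genes, with the mean of both male columns in RPM (log axis) against the log2 ratio of oil to untreated with 1 RPM added. Red points are the 228 genes called higher and blue points the 217 called lower, and the dashed line is the all-gene median of -0.17. AMH lies near that line, while RPL36, NDUFAB1 and STAR lie far above it and FAM43A, HIC1 and SDHC far below. FAM43A and SDHC had no tag after oil, so their heights depend on the 1 RPM added.

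Genes of the ribosome, of mitochondria and of RNA handling led the genes that were higher after oil. RPL36 (chromosome 28), a protein of the large ribosomal subunit, was at 201 RPM in untreated males and at 10879 RPM after oil, a ratio of 54.1 (95% counting interval 48.8 to 60.1). NDUFAB1 (chromosome 14), the mitochondrial acyl carrier protein and a subunit of complex I, was at 4.61 and 337 RPM, a ratio of 73.2 (37.6 to 163). The lower 95% bounds of RPL36 and NDUFAB1, 48.8 and 37.6, lay beyond 2-fold by selection. Called genes were named for how far this bound lay from no change, so the bounds are no separate check. LBH, a transcriptional cofactor of limb bud and heart, was at 13.3 and 495 RPM (ratio 37.2, interval 24.8 to 58.1). RPS27A, which encodes ubiquitin fused to a ribosomal protein, was at 93.7 and 1565 RPM (ratio 16.7, interval 14.2 to 19.7). TIMP2, an inhibitor of matrix metalloproteinases, was at 2.56 RPM (5 tags) and 128 RPM (63 tags). C12H3ORF37, CHURC1, RFXANK, VPS24, SNRNP40 and RPL7L1 were named by the same rule, and their ratios ran from 15.5 for RPL7L1 to 44.4 for C12H3ORF37. Among them SNRNP40 is a spliceosome protein, VPS24 a subunit of the ESCRT-III membrane complex and RFXANK a regulator of MHC class II genes.

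Several genes that were abundant in untreated testes had few or no tags after oil. HIC1 (chromosome 19), a transcriptional repressor, was at 480 RPM (937 tags) in untreated males and at 2.03 RPM (1 tag) after oil, 236-fold lower with an interval of 42.3 to 9341. FAM43A (chromosome 9) was at 229 RPM (447 tags) and at 0, which is 37.6-fold lower against the floor of 3 tags, with a lower interval bound of 30.4-fold. SDHC, the membrane anchor of succinate dehydrogenase, was at 122 RPM (239 tags) and at 0, 20.1-fold lower against the floor (lower interval bound 16.2-fold). These 3 genes thus had 1 tag between them in the oil column. CHGA, the secretory granule protein chromogranin A, was at 188 and 4.06 RPM (2 tags), 46.3-fold lower (12.7 to 384). CDK2, a kinase of the cell cycle, was at 110 and 2.03 RPM (1 tag), 54.0-fold lower (9.58 to 2141). CD69, an activation marker of leukocytes, was at 124 and 4.06 RPM (2 tags), 30.5-fold lower (8.36 to 253). MARCKSL1, an actin-binding protein, TARS2, a mitochondrial tRNA synthetase, CRIP2, a LIM domain protein, and GPR177, the carrier of secreted WNT proteins, were 15.4-fold to 29.8-fold lower. The other 2 of the 12 were LMF2, a lipase maturation factor, at 299 and 18.3 RPM, and CLDN11, described with the Sertoli genes. The file places SDHC, CDK2 and CD69 on unplaced scaffolds. Of 119 compared genes on such scaffolds or linkage groups 17 were lower (14.3%, beside 4.52% of all genes) and 5 higher (4.2%, beside 4.74%).

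**Figure D2:**
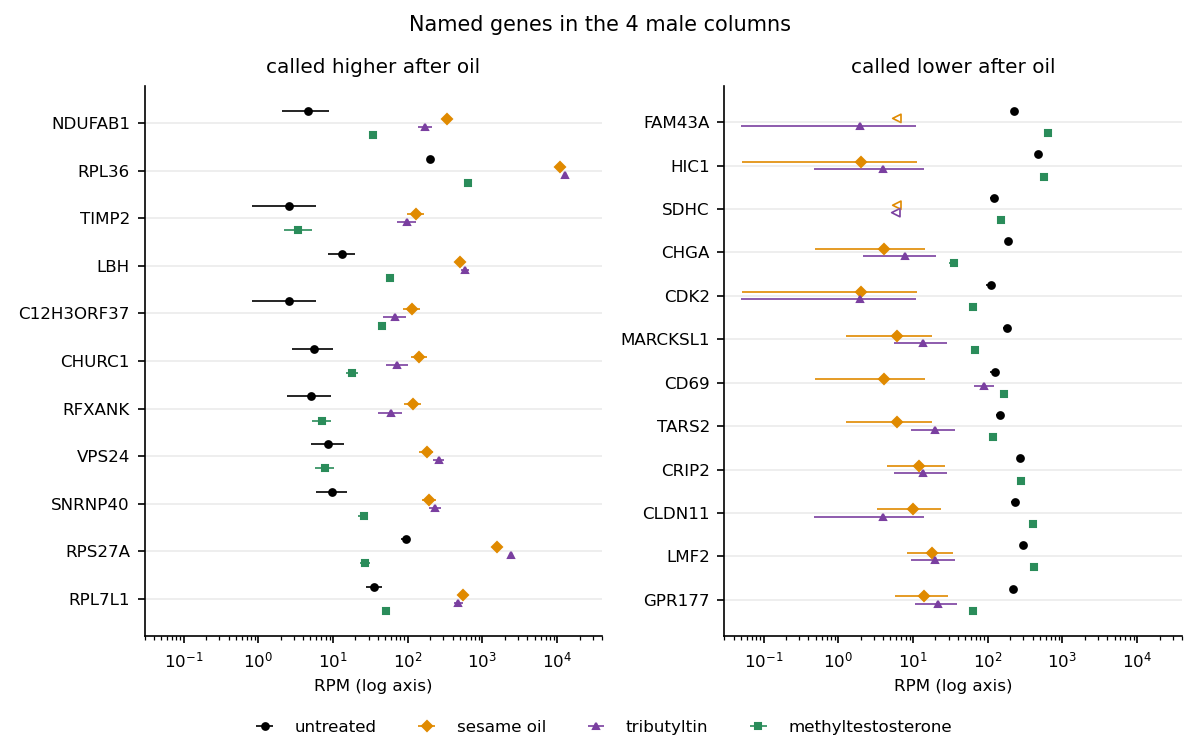
Named genes called higher (left) and lower (right) are shown in RPM (log axis) in the 4 male columns, with exact Poisson 95% intervals as bars. Open triangles mark a column with no tag, drawn at its floor of 3 tags. For RPL36 the untreated value of 201 RPM and the oil value of 10879 RPM are 54.1-fold apart, and for CD69 only the oil column, at 4.06 RPM, lies below 90 RPM.

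The other male columns give the levels of these genes under other substances. RPL36 was at 12722 RPM after tributyltin and at 644 RPM after methyltestosterone, so the shallow columns were high together. LBH was at 589 and 58.5 RPM and RPS27A at 2444 and 27.1 RPM in the same order. HIC1 was at 3.94 RPM after tributyltin and at 564 RPM after methyltestosterone, and FAM43A was at 1.97 and 637 RPM. Again the shallow columns lay together, and the untreated and methyltestosterone columns lay together. CD69 did not share this pattern, with 90.5 RPM after tributyltin and 165 RPM after methyltestosterone, so the oil column alone was low. For other called genes, described below, the untreated column stood apart from all the others. MT-CO3 was at 11499 RPM in untreated males and at 3837, 3950 and 3157 RPM after oil, tributyltin and methyltestosterone. RPL23 was at 2144, 587, 655 and 389 RPM and ATP5A1 at 17.9, 91.3, 88.6 and 78.1 RPM in that order. The same held for MT-ATP8, LAMB2 and ECI2. Over the 228 genes called higher, the median level was 14.3 RPM in untreated, 87.3 in oil, 76.8 in tributyltin and 31.0 in methyltestosterone males. Over the 217 called lower, the medians were 112, 18.3, 25.6 and 89.7 RPM in the same order. Under the same rule 248 of 4982 genes (4.98%) were called between methyltestosterone and untreated males, and 76 of 4632 (1.64%) between oil and tributyltin males. The latter columns are both shallow, so fewer intervals can clear 2-fold, and the interquartile range of their log2 ratios, -0.52 to 0.38, was wider than that of methyltestosterone to untreated, -0.22 to 0.49. These comparisons share columns with the comparison of oil and untreated males and are given as values only.

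The Sertoli cell markers did not move together. Of 13 compared genes of the Sertoli cell and testis list 5 were lower after oil (38.5%, beside 4.52% of all genes) and none was higher, with a median log2 ratio of -0.48 beside -0.17 over all genes. AMH (chromosome 28), anti-Müllerian hormone, was at 10186 RPM in untreated males and 8167 RPM after oil, with 6912 RPM after tributyltin and 10834 RPM after methyltestosterone. Its ratio of 0.80 (0.77 to 0.83) did not pass 2-fold. AMH was among the 10 genes of highest mean level. In females it was at 1486 RPM untreated and 6774 RPM after methyltestosterone, so its level alone does not tell testes from every female column. SOX9 (chromosome 18), the transcription factor that directs Sertoli cell differentiation, was at 273 RPM (534 tags) and 81.2 RPM (40 tags), 3.37-fold lower (2.44 to 4.77). DMRT1 (Z chromosome), the avian testis determinant, was at 66.0 RPM (129 tags) and 4.06 RPM (2 tags), 16.3-fold lower with an interval of 4.41 to 136. CLDN11, the claudin of the Sertoli cell barrier, was at 229 RPM and 10.2 RPM (5 tags), 22.6-fold lower (9.61 to 69.9). WT1 and EMX2, transcription factors of the early gonad, were 4.10-fold (2.02 to 9.69) and 4.13-fold lower (2.25 to 8.41). In all 5 of these genes the tributyltin column was low as well, at 3.94 RPM for CLDN11 and 47.2 RPM for SOX9. The members not called included NR5A1, a regulator of steroid genes, at 407 and 292 RPM, and FSHR, the follicle-stimulating hormone receptor, at 125 and 118 RPM. HEMGN, a Z-linked gene of the male pathway in chicken, was at 23.5 and 36.5 RPM and was not called.

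Of 7 compared genes of the Leydig cell and steroid list 1 was higher after oil (14.3%, beside 4.74% of all genes) and none was lower, and the median log2 ratio was 0.43. The called gene was STAR (chromosome 22), which carries cholesterol into mitochondria for steroid synthesis. It was at 1.02 RPM (2 tags) in untreated males and 44.7 RPM (22 tags) after oil, a ratio of 43.6 with a wide interval of 10.7 to 383. It was at 45.3 RPM after tributyltin and 11.7 RPM after methyltestosterone, so the untreated column was the lowest of the 4. CYP17A1 (chromosome 6), which makes androgen precursors, was at 10071 and 7917 RPM (ratio 0.79, 0.76 to 0.81) and was not called. HSD3B2, a dehydrogenase of steroid synthesis, was at 877 and 1594 RPM with a ratio of 1.82 (1.67 to 1.98). Its whole interval lay under 2-fold, and it was not called. CYP11A1, which cleaves the cholesterol side chain, had 1 tag in each column, which is 0.512 and 2.03 RPM. The luteinising hormone receptor LHCGR had 5 tags in each, which is 2.56 and 10.2 RPM (ratio 3.97, 0.91 to 17.2). Both had too few tags to compare.

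**Figure D3:**
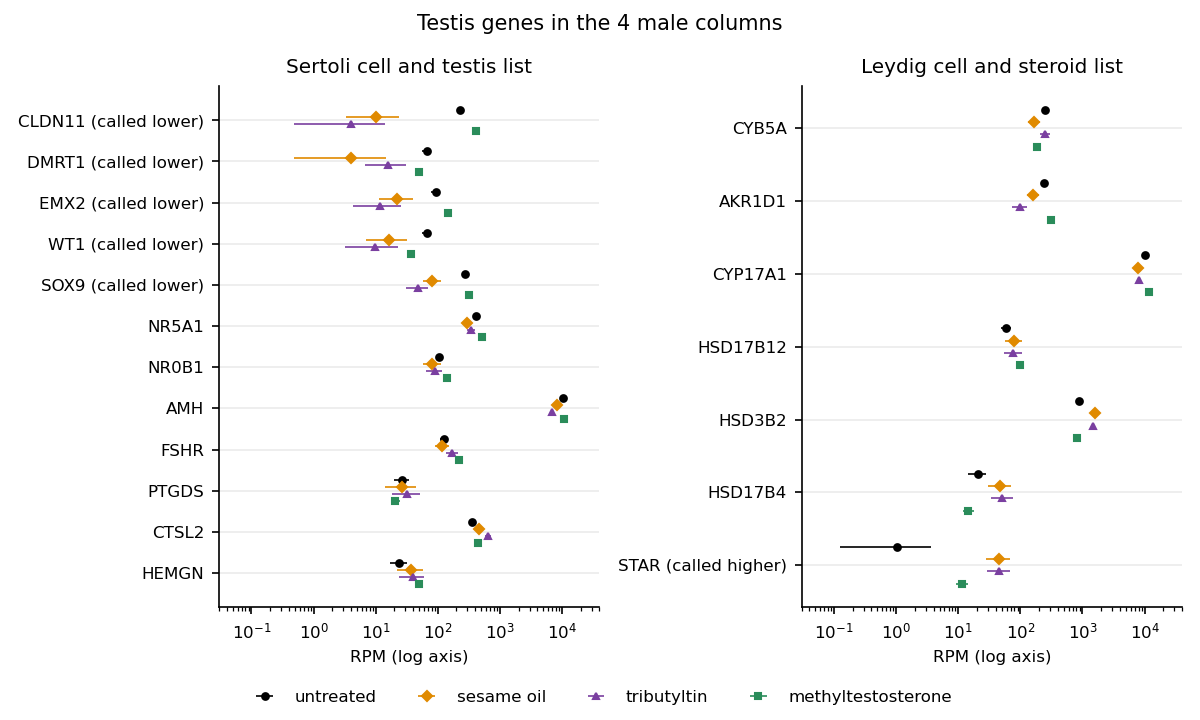
Compared genes of the Sertoli and testis list (left) and of the Leydig and steroid list (right) are shown in RPM (log axis) in the 4 male columns, with exact Poisson 95% intervals as bars. AMH lies between 6912 and 10834 RPM and CYP17A1 between 7917 and 11817 RPM in these columns, while the oil and tributyltin points of CLDN11, DMRT1, EMX2, WT1 and SOX9 lie left of the other columns.

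Ovarian and germ cell genes gave little to compare at these levels. Aromatase, CYP19A1, was at 3.58 RPM (7 tags) in untreated males and at 0 after oil, and FOXL2, a granulosa cell factor, was at 25.1 RPM (49 tags) and at 0, both under the mean needed for comparison. Of 12 ovary and granulosa genes only CTNNB1, the WNT effector beta-catenin, was compared, and it was not called. None of 5 compared germ cell genes was called (beside 4.74% of all genes higher and 4.52% lower), with a median of -0.04. DAZL, an RNA-binding protein of germ cells, was at 30.7 and 77.1 RPM with a ratio of 2.51 (1.63 to 3.83), and DDX4, the germ cell helicase, had no tag in either column. Genes of the female-specific W chromosome summed to 36.9 RPM (72 tags) in untreated males and 4.06 RPM (2 tags) after oil, beside 324 and 178 RPM in the female columns. In males the sum was 0 after tributyltin and 33.9 RPM after methyltestosterone. Of the 72 tags in untreated males 46 came from the W-linked entry of SMAD2. Of 252 compared Z-linked genes 9 were higher (3.57%, beside 4.74% of all genes) and 6 lower (2.38%, beside 4.52%). Their median was -0.06.

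Lipid genes were looked at because the treatment was an oil. Most of them were not called, which also held for 4361 of all 4806 compared genes. Of 20 compared targets of the fatty acid sensor PPAR and genes of fatty acid oxidation, 2 were higher (10.0%, beside 4.74% of all genes), 2 were lower (10.0%, beside 4.52%) and 16 were not called, with a median of -0.14. PDK4 (chromosome 2), the kinase that turns glucose oxidation down when fat is burned, was at 86.0 RPM (168 tags) and 4.06 RPM (2 tags), 21.2-fold lower (5.77 to 176). It was at 80.7 RPM after tributyltin and 103 RPM after methyltestosterone, so that only the oil column was low. ECI2, an isomerase of the oxidation of unsaturated fatty acids, was at 75.8 and 18.3 RPM, 4.15-fold lower (2.13 to 9.25). HADHA, the alpha subunit of the mitochondrial trifunctional protein, was at 9.21 and 67.0 RPM (ratio 7.27, 3.98 to 13.7), and ACADS, the short-chain acyl-CoA dehydrogenase, at 33.3 and 134 RPM (ratio 4.03, 2.82 to 5.76). HADHB, the partner subunit of HADHA in the same complex, was at 110 and 102 RPM and was not called. CPT1A, which lets fatty acids into mitochondria, was at 200 and 124 RPM, and the lipid droplet protein PLIN2 at 82.4 and 132 RPM, neither called.

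Genes of cholesterol and fatty acid synthesis had a median of -0.53. Of 19 compared 1 was lower (5.26%, beside 4.52% of all genes) and none was higher. The gene was SREBP-1, the transcription factor that drives fatty acid synthesis, at 51.2 RPM (100 tags) in untreated males and at 0 after oil. It was 8.40-fold lower against the floor of 3 tags, with a lower interval bound of 6.71-fold. SREBP-1 was also at 0 after tributyltin and at 71.7 RPM after methyltestosterone. FASN, the fatty acid synthase, was at 160 and 185 RPM and SQLE, an enzyme of cholesterol synthesis, at 70.1 and 69.0 RPM, neither called. ACAT2, which makes acetoacetyl-CoA, was at 335 and 664 RPM with a ratio of 1.98 (1.73 to 2.27). None of 3 compared fatty acid binding and lipid carrier genes was called (beside 4.74% of all genes higher and 4.52% lower). FABP5 was at 82.9 and 75.1 RPM and APOA1, the protein of high-density lipoprotein, at 392.1 and 574.5 RPM. Genes of xenobiotic and glutathione metabolism had a median of -0.56, and of 13 compared 1 was lower (7.69%, beside 4.52% of all genes). This was ARNT, the partner of the aryl hydrocarbon receptor, at 166 and 32.5 RPM, 5.12-fold lower (3.11 to 9.07).

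Most stress genes were not called, which also held for 4361 of all 4806 compared genes. The stress lists held 16 to 32 compared genes, so their shares rest on few called genes. Of 32 compared heat shock and unfolded protein genes 3 were higher (9.38%, beside 4.74% of all genes) and 1 was lower (3.12%, beside 4.52%). Their median was -0.14. HSP70, an inducible chaperone, was at 9.21 RPM (18 tags) and 71.1 RPM (35 tags), a ratio of 7.71 (4.25 to 14.5). HSPB2, a small heat shock protein, was at 56.8 and 185 RPM (ratio 3.25, 2.44 to 4.33), and SERPINH1, the collagen chaperone, at 1063 and 2324 RPM (ratio 2.19, 2.03 to 2.35). DNAJB6, a co-chaperone, was 3.11-fold lower (2.07 to 4.88). The endoplasmic reticulum chaperone HSPA5 was at 618 and 613 RPM. None of 20 compared oxidative stress genes was called (beside 4.74% of all genes higher and 4.52% lower), with a median of -0.04. Of 16 compared immediate early genes 2 were lower (12.5%, beside 4.52% of all genes) and none was higher, with a median of -0.63. ID3, an inhibitor of helix-loop-helix factors, was at 212 and 14.2 RPM, 14.9-fold lower (7.19 to 37.4), and the clock gene PER2 was at 49.1 and 10.2 RPM (5 tags), 4.84-fold lower (2.00 to 15.2). EGR1 was at 10.2 and 10.2 RPM and FOS had no tag in either column, so the quickest members of this class could not be compared.

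Ribosomal protein genes, the list with the most compared members, were called in both directions. Of 48 compared members 10 were higher (20.8%, beside 4.74% of all genes) and 6 were lower (12.5%, beside 4.52%), with a median of 0.42. All 62 members together took 14.7% of the tags in untreated males and 19.1% after oil, with 19.2% after tributyltin and 13.2% after methyltestosterone. RPL36 alone gave 10879 of their 190965 RPM after oil. RPS28 was at 89.1 and 761 RPM (ratio 8.55, 7.12 to 10.3). In the other direction RPL23 was at 2144 and 587 RPM, 3.65-fold lower (3.24 to 4.13), and RPLP0 at 2212 and 648 RPM, 3.42-fold lower (3.05 to 3.84). Members that belong to the same particle thus differed in direction. Ribosomal genes have near-identical copies in many genomes, and how tags shared by copies were assigned was not stated, so single members are uncertain. GAPDH, the glycolytic enzyme often used as a reference gene, was at 6276 and 14407 RPM, a ratio of 2.30 (2.23 to 2.36), and was called higher.

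Genes of the respiratory chain were also called in both directions, though most compared members lay under the all-gene median. The mitochondrial genome took 10.8% of the tags in untreated males and 10.6% after oil, beside 6.27% after tributyltin and 7.10% after methyltestosterone. Its 12 chain genes alone took 9.09% in untreated males and 7.45% after oil. Of these 12 compared genes 2 were lower (16.7%, beside 4.52% of all genes) and 1 was higher (8.33%, beside 4.74%). Their median was -0.34, and 4 of the 12 lay above the all-gene median. MT-CO3, a core subunit of cytochrome c oxidase, was at 11499 and 3837 RPM, 2.997-fold lower (2.86 to 3.14). MT-ATP8, a subunit of ATP synthase, was 6.57-fold lower (4.45 to 10.1), and ND4L was higher, at 60.4 and 164 RPM. The entry gga-mir-3527, annotated as a microRNA on the mitochondrial genome, had the highest mean level of all, at 11564 and 27232 RPM (ratio 2.35, 2.30 to 2.41). Whether its tags stem from neighbouring mitochondrial transcripts was not tested. Of 44 compared nuclear genes of the chain 4 were lower (9.09%, beside 4.52%) and 2 were higher (4.55%, beside 4.74%). Their median was -0.45, and 15 of the 44 lay above the all-gene median. After SDHC the lower ones were NDUFB6 of complex I, 5.39-fold lower (2.96 to 10.9), ATP5F1 of ATP synthase, 2.85-fold lower (2.17 to 3.82), and UQCRH of complex III, 2.75-fold lower (2.27 to 3.35). The higher members, ATP5A1 (ratio 5.10, 3.21 to 8.17) and ATP5C1 (ratio 4.44, 2.50 to 7.94), are subunits of ATP synthase too. NDUFAB1, called higher as described above, is not in this list and is outside its counts.

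Of 24 compared cell cycle genes 5 were higher (20.8%, beside 4.74% of all genes) and 1 was lower (4.17%, beside 4.52%), with a median of 0.21. CDK2, called lower as described above, is not in this list and is outside its counts. TOP2A, the topoisomerase of dividing cells, was at 36.3 and 191 RPM (ratio 5.25, 3.82 to 7.25). CENPE, a kinetochore motor, was at 16.4 and 112 RPM (ratio 6.82, 4.33 to 10.9), and TPX2, a spindle protein, at 72.2 and 201 RPM (ratio 2.78, 2.13 to 3.63). The oil value was the highest of the 4 male columns for TOP2A, CENPE and TPX2, whose tributyltin values were 100, 49.2 and 96.4 RPM. BIRC5, the mitotic protein survivin, was at 11.8 and 44.7 RPM (ratio 3.79, 2.02 to 7.12). CENPF, another kinetochore protein, stands in the table under a pair of identifiers, of which 1 was called higher (11.3 and 50.7 RPM) and the other was not (48.6 and 67.0 RPM). RRM1, which makes deoxyribonucleotides, was lower, at 81.9 and 20.3 RPM. The proliferation marker MKI67 was at 64.0 and 71.1 RPM and was not called.

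Of 37 compared extracellular matrix genes 5 were lower (13.5%, beside 4.52% of all genes) and 3 were higher (8.11%, beside 4.74%), with a median of -0.53. LAMB2, a laminin chain of basement membranes, was at 121 and 12.2 RPM, 9.96-fold lower (4.51 to 27.4). COL9A2, ELN (elastin), COL1A2 and OGN (osteoglycin) were 2.43-fold to 3.59-fold lower. The higher members were TIMP2, the laminin chain LAMA2 (20.5 and 69.0 RPM) and COL5A1, a chain of type V collagen, at 282 and 820 RPM (ratio 2.91, 2.55 to 3.31). SPARC, the most abundant matrix gene, was at 4832 and 6433 RPM and was not called.

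Markers of adjoining adrenal and kidney tissue had small summed levels, and the sums were smaller after oil. The 17 adrenal and neuroendocrine genes summed to 733 RPM in untreated males and 260 RPM after oil, with 242 RPM after tributyltin and 399 RPM after methyltestosterone. Of 5 compared members 2 were lower (40%, beside 4.52% of all genes) and none higher, with a median of -0.90. Besides CHGA, PNMT, the enzyme that makes adrenaline, was at 71.7 RPM (140 tags) and at 0. It was 11.8-fold lower against the floor of 3 tags, with a lower interval bound of 9.44-fold. TH, the first enzyme of catecholamine synthesis, was at 17.9 RPM and at 0, under the mean for comparison. Of the 17 members 10 had no tag after oil and 4 had none in the deeper untreated column. Over all 14074 genes 5569 had no tag after oil and 3398 had none in untreated males. The 21 mesonephros and kidney genes summed to 531 and 323 RPM. Of 3 compared members none was called, with a median of -1.17, and CALB1 (27.6 RPM) and SLC34A1 (18.9 RPM) were at 0 after oil. The part of adjoining tissue in the lower calls was not tested. Red blood cell genes summed to 3067 and 4168 RPM with none of 6 compared members called, HBAA among them at 1294 and 1443 RPM. None of 8 smooth muscle and 5 endothelium genes was called, with medians of -0.45 and -0.33. Of 5 leukocyte and complement genes CD69 alone was called, as lower. At all-gene shares of 4.74% higher and 4.52% lower, a list of 3 to 8 compared genes may well hold no call or 1. The counts for kidney, red blood cell, smooth muscle, endothelium and leukocyte genes thus do not show whether these cell types changed.

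Of 6 compared beta-defensin and related antimicrobial genes 2 were lower (33.3%, beside 4.52% of all genes), with a median of -0.04. GAL10 (chromosome 3), an avian beta-defensin, was at 314 RPM (613 tags) and 28.4 RPM (14 tags), 11.04-fold lower (6.53 to 20.3). It was at 329 RPM after tributyltin and 277 RPM after methyltestosterone, so the oil column stood alone. GAL2 was at 321 and 110 RPM, 2.93-fold lower (2.22 to 3.95), and was at 98.4 RPM after tributyltin. None of 6 compared insulin-like growth factor genes and none of 5 compared TGF-beta family genes was called, with medians of -0.20 and 0.23. Both lists are small beside all-gene shares of 4.74% higher and 4.52% lower. NFIB, a Z-linked transcription factor, was at 96.7 and 112 RPM and was not called, beside 1102 RPM after tributyltin.

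**Figure D4:**
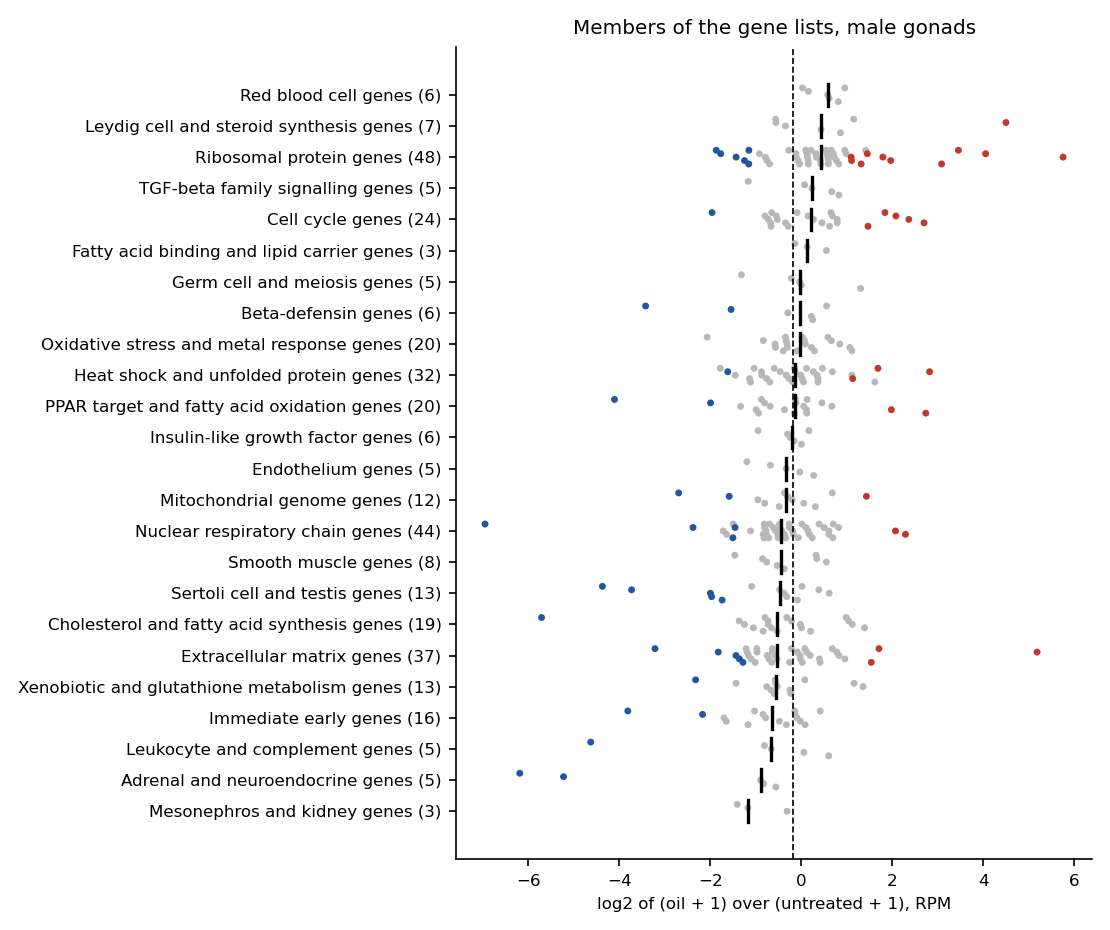
Each row is a gene list with the number of compared members in parentheses, for lists with at least 3, and each point is a member's log2 ratio of oil to untreated with 1 RPM added. Red points were called higher, blue points lower and grey points not called, black bars are list medians, and the dashed line is the all-gene median of -0.17. Ribosomal protein genes spread furthest to the right, up to 5.75 for RPL36, and the nuclear respiratory chain list reaches -6.95 with SDHC. SDHC had no tag after oil, so this value depends on the 1 RPM added.

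The female columns, from other embryos, gave the same comparison in ovaries, with 342 of 5101 genes higher (6.70%) and 267 lower (5.23%). Of the 228 genes higher in males 177 were also compared in females, and 112 of them were called higher there, which is 49.1% of the male list and 32.7% of the female list. None was called lower. Of the 217 genes lower in males 197 were compared in females, and 73 were called lower there, which is 33.6% of the male list and 27.3% of the female list, and 1, the proteasome subunit PSMD13, was called higher. Over the 4420 genes compared in both sexes 5.48% were called higher and 4.50% lower in females. The counts to set beside these shares are 112 of 177 and 73 of 197, since 49.1% and 33.6% are over all male calls, compared in females or not. RPL36 was at 213 and 10003 RPM, NDUFAB1 at 3.48 and 162 RPM and STAR at 13.0 and 133 RPM in untreated females and females given oil. HIC1 was at 337 and 22.2 RPM and PDK4 at 259 and 22.2 RPM. CD69 was at 35.2 and 50.8 RPM in females and was not called there. NFIB was at 138 and 934 RPM in females, called higher there and not in males, and this difference between the sexes was not tested. The female oil column was also shallow, with 314810 tags beside 2301752, so the sexes share the gap in depth.

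**Figure D5:**
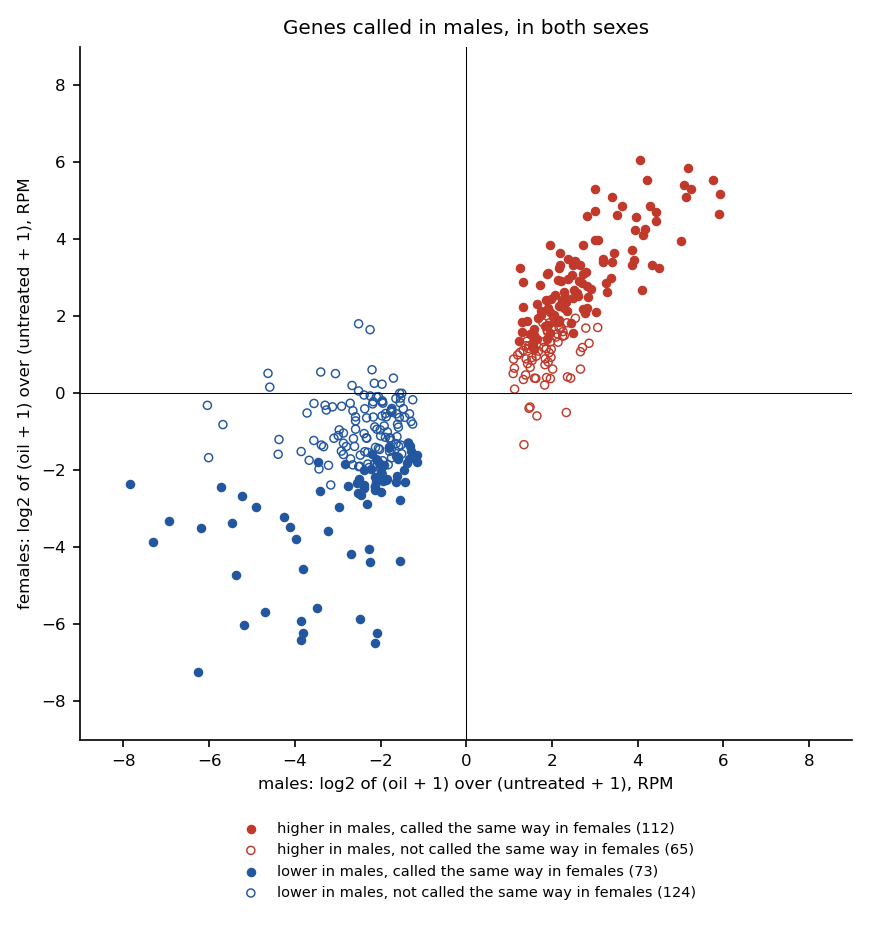
Each point is a gene called in males and compared in both sexes, with its log2 ratio of oil to untreated in males (horizontal) and in females (vertical), 1 RPM added. Filled points were called the same way in females (112 higher, 73 lower) and open points were not (65 and 124). Filled red points lie in the upper right quadrant by this definition.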

How the data were processed

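Per the submitters' processing notes, SuperSAGE tags of gonad RNA were aligned to the galGal4 build, and Novoalign was used, in a version that was not stated. The authors deposited 1 table of RPM values, tags scaled to a common total over the listed genes, with right and left libraries joined and 0.05 in place of no tag, which was set to 0 here. With that filler removed, 100% of the deposited RPM values were within 0.01 of a whole tag, which gave the tag counts and the tag totals. The authors' deposited p-value for these columns came from a test that was not stated, and strand use in their counting was not stated.

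Ratios of oil to untreated were computed from recovered tags and tag totals with exact conditional binomial 95% intervals (Clopper-Pearson), and single levels with exact Poisson 95% intervals. Tags carry no molecular identifiers and are not independent molecules, so these intervals cover counting error only and are minimal. Genes whose mean over both columns reached 20 RPM were compared, and a call needed an interval wholly beyond 2-fold. Log2 ratios had 1 RPM added, which understates the change of low genes with tags in both columns. Where the oil column had no tag, 1 RPM is less than its 1 tag of 2.03 RPM. Such log2 ratios, among them -6.95 for SDHC, exceed the change against the floor of 3 tags. No test between conditions was run, since each group is 1 column. Calls were checked on simulated tags.

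Named genes were the 12 called genes with a symbol in each direction whose interval bound nearest 1 was farthest from 1, at 100 RPM or more in the higher column, up to 4 called members of each list in each direction by the same bound, 20 fixed genes such as AMH and SOX9, and the 10 genes of highest mean level. A few of these genes are not reported here. The text adds list members that were not called, and BIRC5, WT1, OGN, FOXL2, TH, CALB1 and SLC34A1, which were chosen after their values were seen. The comparison, the gene lists and the fixed genes were chosen with earlier results of these data known, and older symbols were added to the lists by name after the table was opened. Alternatives were a 4-fold and a 99% rule, a 2-fold ratio without interval, a mean of 100 RPM, no filter, 3 other scalings, thinning of the untreated column, and other handling of low values. Python 3.11.15, numpy 2.4.6, pandas 2.3.3, scipy 1.17.1 and matplotlib 3.10.9 were used.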

Additional observations from a re-analysis of the deposited data

Results flagged for a closer look

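PSMD13 (ENSGALG00000004219, chromosome 5), a subunit of the proteasome lid, moved in opposite directions in the sexes. It was lower after oil in males, at 39.4 RPM (77 tags) and 6.09 RPM (3 tags), a log2 ratio of -2.51. In females it was higher, at 25.6 RPM (59 tags) and 92.1 RPM (29 tags), a log2 ratio of 1.81. It was the single gene called in opposite directions in males and females, each sex had 1 column a group, and the difference between the sexes was not tested.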

How the results depend on the processing

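The counts of calls depend on the rule. An interval beyond 4-fold left 81 genes higher and 47 lower in males, of which 45 and 15 were called the same way in females, and a mean of at least 100 RPM left 68 and 74 (34 and 31 in both sexes). A ratio of 2-fold without an interval gave 446 higher and 801 lower (233 and 363 in both sexes). Without a filter 372 were higher, and with a 99% interval 47 were called lower in both sexes. Scaling by the median of ratios moved the medians of the ovary, ribosomal and mitochondrial genome lists to -0.051, 0.60 and -0.16, and scaling by a trimmed mean moved those of the ribosomal and mitochondrial genome lists to 0.54 and -0.22. Under every alternative tried, the other list medians stayed between the medians of their members' lower and upper interval bounds, a wide band. Within it, thinning moved the beta-defensin median from -0.04 to -0.35 and the endothelium median from -0.33 to -0.08. No called gene among those named by the rules above changed sign, but the other scalings shifted log2 ratios by at most 0.17 and could not reverse such calls. With the untreated column thinned to the oil depth, 165 genes were higher and 194 lower, of which 154 and 171 were shared with the calls at full depth. Depth limits the oil column most, since 1 tag there stands for 2.03 RPM, and the Poisson interval of a gene without a tag reaches 7.49 RPM. No replicate could be left out, and no paired analysis was possible because each group is 1 joined column. Tools that model counts over replicates were not run for the same reason.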
